A study of Mus musculus with 2 samples.

Results

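Many genes in a genome annotation carry only a stable identifier, and the promoters of such genes are described here from ATAC-seq of mouse liver. ATAC-seq uses the Tn5 transposase to cut accessible DNA and to tag it for sequencing, so that the number of reads on a stretch of DNA measures how open its chromatin is. A region of open chromatin was included when its centre lay within 1 kb of its closest transcription start site (TSS), when the gene of that TSS had an Ensembl identifier but no symbol in the authors' table, and when the centre was more than 2 kb from the TSS of every gene with a symbol. Of 69549 distinct regions, 14387 lay within 1 kb of a TSS, and 2486 of these (17.3%) met the rule. They are called unnamed promoters below. They belonged to 2271 genes, of which 209 had more than 1 region and none more than 3. The 11600 promoter regions of genes with a symbol (named promoters) served for comparison, and a further 301 regions of genes without a symbol lay within 2 kb of a named TSS and were left out.

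The libraries came from livers of 8-week-old C57BL/6 mice on normal chow. The control library was Mettl3 flox/flox, in which the gene of the m6A RNA methyltransferase METTL3 is flanked by loxP sites and intact. The HKO library was Mettl3-HKO (Mettl3 flox/flox Alb-Cre+/−), in which Cre under the albumin promoter deletes Mettl3 in hepatocytes. The study's methods state that each library was made from pooled livers of 4 mice, so there was 1 library per genotype, no replicate error and no test between genotypes. Both libraries carried the floxed allele, the control carried no Cre, and whole liver also holds endothelial, immune and stellate cells that Alb-Cre does not target.

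Gene symbols are given mainly to protein coding genes and well studied RNAs. Genes that have only an identifier are mostly long non-coding RNAs (lncRNAs), which are transcribed by RNA polymerase II and often start next to a coding promoter on the opposite strand, and also pseudogenes and genes of short RNAs such as microRNAs, small nuclear RNAs (snRNAs) of the spliceosome and small nucleolar RNAs (snoRNAs) that guide the modification of ribosomal RNA. Short RNAs encoded inside an intron are usually cut from the host transcript and need no promoter of their own, whereas tRNAs and several structural RNAs have compact promoters read by RNA polymerase III.

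The label holds for the table rather than for the genes. Of the 27433 closest genes in the table, 12845 (46.8%) had no symbol. The Ensembl identifiers could not be looked up in RefSeq, so gene models were matched by position. For 852 unnamed promoters (34.3%) the Ensembl gene and a RefSeq gene shared at least 90% of their joint length, and for 1201 (48.3%) at least 50%. Gene names below are those of the RefSeq gene that a region overlaps or whose model matches, and they do not claim that the unnamed Ensembl gene is that gene. The genes were short, with a median length of 2213.5 bp against 21288 bp at named promoters, and 416 of the regions had a closest gene of 200 bp or less.

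The promoters below are shown because their regions were the strongest of a known lncRNA (Snhg8), lay at the host gene of a liver microRNA (Mir22hg), or had large differences between the libraries in either direction (Firre, Alkbh3os1, 4930522O17Rik and Gm39228). Each runs from 250 bases before to 50 bases after a RefSeq start on GRCm38.p6, written 5′ to 3′ on the gene's strand. Capitals mark matches on either strand to the TATA box (letters TATAAA). They also mark the CCAAT box, searched by the letters of its name. The GC box was searched as GGGCGG. The ETS site was taken as CCGGAAG. For the E-box the letters were CACGTG. Matches of different motifs were counted even where they overlap.
Snhg8 promoter, chr3:123508287-123508586, minus strand: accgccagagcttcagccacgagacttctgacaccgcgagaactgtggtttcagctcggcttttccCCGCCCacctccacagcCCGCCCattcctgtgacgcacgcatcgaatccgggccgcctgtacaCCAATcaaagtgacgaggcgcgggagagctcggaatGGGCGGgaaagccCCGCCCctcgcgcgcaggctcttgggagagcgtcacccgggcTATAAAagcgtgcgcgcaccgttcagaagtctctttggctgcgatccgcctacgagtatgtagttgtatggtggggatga
Mir22hg promoter, chr11:75461289-75461588, plus strand: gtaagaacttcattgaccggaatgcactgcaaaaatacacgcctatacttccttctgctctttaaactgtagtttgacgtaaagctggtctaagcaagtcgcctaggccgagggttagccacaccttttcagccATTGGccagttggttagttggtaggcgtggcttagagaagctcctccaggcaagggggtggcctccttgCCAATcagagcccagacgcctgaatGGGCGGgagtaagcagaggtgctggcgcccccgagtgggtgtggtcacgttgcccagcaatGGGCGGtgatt
Firre promoter, chrX:50635272-50635571, minus strand: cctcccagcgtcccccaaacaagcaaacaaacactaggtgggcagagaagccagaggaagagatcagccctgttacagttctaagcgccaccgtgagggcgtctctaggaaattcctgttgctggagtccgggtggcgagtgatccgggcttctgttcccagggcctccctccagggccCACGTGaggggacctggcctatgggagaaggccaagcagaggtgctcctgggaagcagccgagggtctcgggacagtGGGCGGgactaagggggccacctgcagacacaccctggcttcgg
Alkbh3os1 promoter, chr2:93979784-93980083, plus strand: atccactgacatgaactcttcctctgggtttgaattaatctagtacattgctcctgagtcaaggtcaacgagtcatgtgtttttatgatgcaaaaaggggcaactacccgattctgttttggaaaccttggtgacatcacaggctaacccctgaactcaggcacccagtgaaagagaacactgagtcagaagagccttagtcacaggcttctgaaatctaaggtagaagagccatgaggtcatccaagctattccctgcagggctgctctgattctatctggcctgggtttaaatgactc
4930522O17Rik promoter, chr4:53245946-53246245, plus strand: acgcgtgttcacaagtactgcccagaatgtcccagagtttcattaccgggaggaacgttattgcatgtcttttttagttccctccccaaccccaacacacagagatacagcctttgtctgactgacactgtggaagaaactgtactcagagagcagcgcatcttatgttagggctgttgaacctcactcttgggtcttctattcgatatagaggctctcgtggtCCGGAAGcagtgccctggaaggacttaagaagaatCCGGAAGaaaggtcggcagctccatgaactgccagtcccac
Gm39228 promoter, chr8:94183169-94183468, plus strand: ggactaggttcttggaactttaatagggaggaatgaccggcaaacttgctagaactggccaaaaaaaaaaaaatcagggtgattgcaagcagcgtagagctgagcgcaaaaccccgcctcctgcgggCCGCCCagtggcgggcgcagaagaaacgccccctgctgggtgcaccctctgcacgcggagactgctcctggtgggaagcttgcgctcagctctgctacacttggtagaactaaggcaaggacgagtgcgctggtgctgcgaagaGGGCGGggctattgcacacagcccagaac

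The Snhg8 sequence held 6 of these matches, 4 of them GC boxes, and its GC content was 62%. The Alkbh3os1 sequence held none, with 46% GC and a CpG ratio of 0.126, where the ratio sets the number of CG dinucleotides against that expected from the C and G content. The 4930522O17Rik sequence held 2 ETS sites close together. Of the 300 bases of that promoter 99 lay inside the open region, whereas the other sequences lay inside their regions in full.

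A RefSeq promoter sequence with its start within 1 kb of the region centre was at hand for 906 unnamed promoters, on 845 distinct sequences. Unnamed promoters at a coding start had a median CpG ratio of 0.80, close to the 0.78 of named promoters, and those at a lncRNA start had 0.35, close to the 0.38 of all 32851 RefSeq promoters in the table. A GC box occurred in 64.3% of the 359 sequences at coding starts, in 28.3% of the 488 at lncRNA starts, in 67.2% of those of named promoters and in 35.7% of all. A TATA box occurred in 7.24%, 14.1%, 6.74% and 13.6%, respectively. CCAAT boxes hardly separated the groups, at 38.4%, 34.4%, 38.3% and 37.4%. ETS sites were in 22.0%, 7.99%, 17.8% and 8.86%, and E-boxes in 11.1%, 10.5%, 10.6% and 7.15%. The core GGTTCGA of the B box of polymerase III genes was in 2.51%, 1.23%, 1.24% and 0.910%. A CpG ratio above 0.6 went with a stronger signal, since the 431 unnamed promoters above it had a median of 10.4 RPM in the control library and the 475 others 2.63 RPM. RPM is the read count plus 1, scaled to a common library size.

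Unnamed promoters were weaker and shorter than named ones in both libraries. The median signal in the control library was 2.45 RPM (95% order-statistic interval over regions 2.18 to 2.67) against 8.31 RPM (8.06 to 8.50) at named promoters. In the HKO library the medians were 1.89 RPM (1.79 to 2.00) and 5.27 RPM (5.15 to 5.41). The median unnamed promoter had 128.5 and 108.5 counts in the libraries, and 68 of the 2486 had fewer than 10 counts in at least 1 library. In signal per base, the median fold enrichment over the genome was 13.8 against 28.1 in the control library and 11.0 against 18.0 in the HKO library. The median length was 477 bp (453 to 499) against 814 bp (805 to 823). Among the strongest promoter regions by mean RPM, 15 of the top 100 and 8 of the top 50 were unnamed. This was near the 17.3% of all promoter regions that were unnamed.

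Peaks at unnamed promoters were less often called in both libraries than those at named ones. A peak in both was recorded for 68.2% of unnamed promoters (95% Wilson interval 66.4% to 70.0%) and 86.9% of named ones (86.3% to 87.5%). A peak only in the control library was recorded for 358 unnamed promoters (14.4%) and only in the HKO library for 432 (17.4%), against 6.74% and 6.36% of named promoters. Over all regions the shares were 61.7%, 16.8% and 21.5%, so that unnamed promoters lay between named promoters and regions in general.

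The regions also sat less tightly on the TSS. The centre lay within 100 bp of it for 25.1% of unnamed (23.4% to 26.8%) and 38.6% of named promoters (37.7% to 39.4%). The largest share, 26.5%, lay in the 250 bp upstream, where named promoters had 29.0%, while the first 250 bp downstream held 20.7% of unnamed and 42.9% of named promoters. Within 250 bp on either side the median signal of unnamed promoters was 3.61 and 3.74 RPM in the control library, and it fell to 1.13 RPM at 750 to 1000 bp upstream. By the authors' annotation the centre was intergenic or unlisted for 1103 unnamed promoters, in an intron for 766 and in an exon for 617. At the limits of the rule, the 131 regions 900 to 1000 bp from the TSS had a median control signal of 1.14 RPM and the 157 regions just outside, at 1000 to 1100 bp, 1.53 RPM. The 80 regions 2000 to 4000 bp from a named TSS had 4.18 RPM, and the 301 left out as closer 5.22 RPM.

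**Figure D1:**
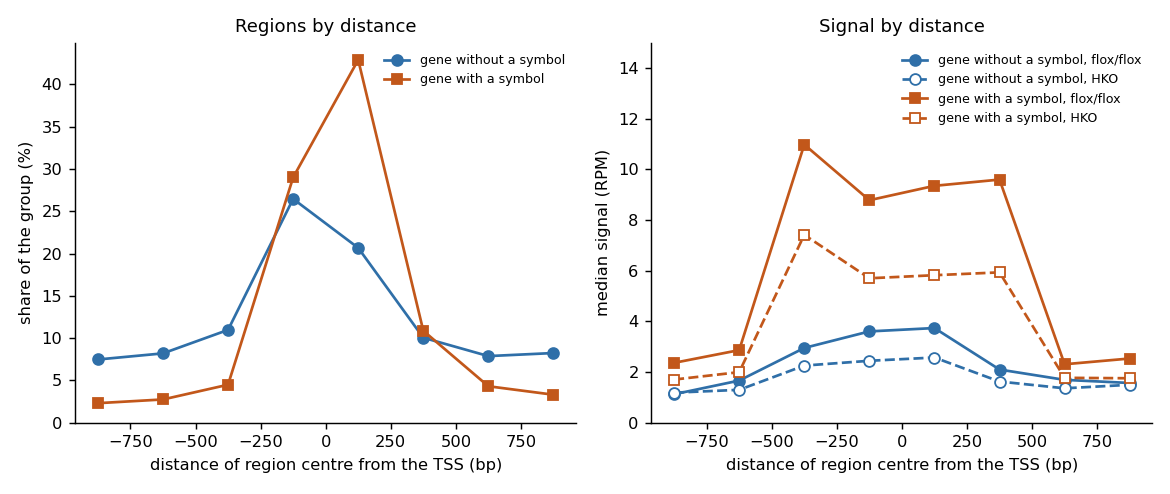
Share of regions (left, percent of each group) and median signal (right, RPM, filled symbols control and open symbols HKO) in steps of 250 bp from the TSS. Unnamed promoters (circles) were spread more evenly around the TSS than named ones (squares), and their median stayed below 4 RPM at every distance in both libraries.

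Position relative to RefSeq starts separated unnamed promoters of quite different strength. Of the 2451 that could be classed, 371 (15.1%) lay within 1 kb of a RefSeq coding start, 535 within 1 kb of a lncRNA start only and 1545 within 1 kb of neither. The reference set of starts had gaps, so neither means only that the set held no start there. A region of Neat1 centred 62 bp from the authors' TSS was classed as neither. At Snhg6 the nearest coding start of the set was 8201850 bp away. Those at a coding start resembled named promoters, with medians of 10.4 RPM in the control library, 6.63 RPM in the HKO library and 930 bp in length. Those at a lncRNA start had 3.10 and 2.12 RPM and 517 bp, and those at neither had 1.67 and 1.43 RPM and 400 bp. Among named promoters with a class, 79.8% lay at a coding start, with medians of 8.82 and 5.60 RPM and 833 bp. The 371 regions lay at the starts of 351 coding genes. Of the symbols of those genes, 240 were used in the table for an overlapped gene, 77 for a closest gene and 90 nowhere, so a region at a well known coding promoter could still be assigned to a gene without a symbol. For 155 of the 371 the RefSeq coding start was nearer to the centre than the TSS used by the authors.

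The comparison of the genotypes asks how open these promoters are in livers whose hepatocytes lack METTL3. It was made as the log2 ratio of the HKO over the control library, scaled to totals of 58038309 and 52826210 reads. The median over all 69549 regions was −0.38 on this scale, and values relative to it are called centred. Unnamed promoters had a median of −0.44 (−0.47 to −0.41), or −0.059 centred, and named promoters −0.58 (−0.59 to −0.57), or −0.20 centred. The medians differed by 0.14 on the log2 scale, with the unnamed promoters closer to the median of all regions. The sign of the unnamed median depends on the scaling, and it was 0.075 when the libraries were scaled to the reads in regions. In bulk liver, fewer cells with an open region and less opening per cell cannot be told apart.

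Large differences in both directions were more frequent at unnamed than at named promoters. At least 2-fold higher in the HKO library were 244 unnamed promoters (9.81%, 8.71% to 11.0%) and 2.83% of named ones, beside 13.2% of all regions. At least 2-fold lower were 466 unnamed promoters (18.7%, 17.3% to 20.3%) and 15.8% of named ones, beside 18.3% of all regions. After centring, 388 (15.6%) were at least 2-fold higher, beside 20.0% of all regions, and 211 (8.49%) at least 2-fold lower, beside 7.89%. The shares of named promoters were then 4.96% and 4.21%. The shares of unnamed promoters were thus below those of all regions for higher ratios and close to them for lower ratios. By an exact conditional binomial test of the counts, adjusted over all regions, 414 unnamed promoters (16.7%) were called higher and 1345 (54.1%) lower. The shares were 5.73% and 75.5% of named promoters, and 20.3% and 47.7% of all regions. The test used the library totals without centring, so the −0.38 shift of all regions enters the calls. That test compares these libraries rather than the genotypes and covers counting error only.

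Most of the difference in the medians lay among weak and short regions. All promoter regions were split into 4 bins of equal size by mean RPM, and the lowest bin held 47.5% of unnamed but 20.1% of named promoters. There the median log2 ratio was −0.01 (−0.08 to 0.08) for unnamed and −0.15 (−0.21 to −0.10) for named promoters, a difference of 0.15. In the upper 3 bins the differences were 0.03, −0.03 and 0.02, with intervals that overlapped. Of the 244 unnamed promoters that were at least 2-fold higher, 223 were in the lowest bin of signal, while the 466 that were lower were spread over the bins, with 200, 142, 79 and 45. Of the 328 named promoters that were higher 285 were in the lowest bin as well, and the lower ones numbered 353, 490, 528 and 460 over the bins. As shares of each bin, 16.9%, 22.1%, 22.3% and 14.6% of unnamed promoters were lower, from the weakest to the strongest. The shares of named promoters were 15.1%, 17.1%, 16.5% and 14.3%. In bin 2 the intervals were apart, at 19.1% to 25.5% against 15.8% to 18.6%. They were also apart in bin 3, at 18.2% to 26.9% against 15.3% to 17.9%, and overlapped in the lowest and highest bins. By bins of length the differences in the median log2 ratio were 0.22, 0.10, −0.04 and 0.04 from the shortest to the longest. The intervals of these medians overlapped in the upper 2. The part of read depth in the difference of the lowest bin was not tested.

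**Figure D2:**
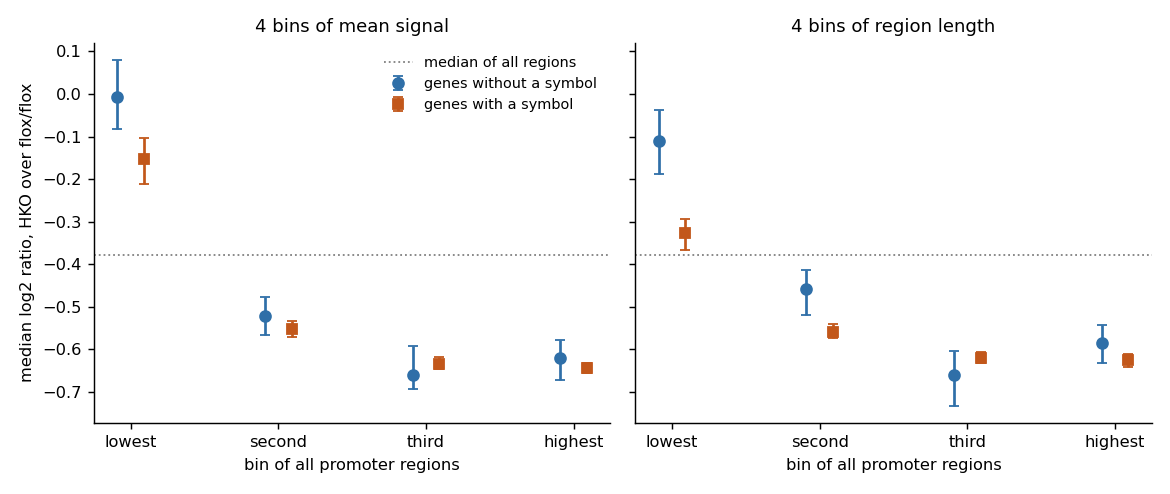
Median log2 ratio of HKO over control by 4 bins of mean RPM (left) and of length (right) of all promoter regions, with 95% order-statistic intervals over regions as bars. The dotted line is the median of all regions, −0.38. Unnamed (circles) and named promoters (squares) lay apart in the lowest bins and overlapped in the highest.

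The ratio also differed among the classes by RefSeq start. The median log2 ratio was −0.59 (−0.63 to −0.54) at coding starts, −0.48 (−0.54 to −0.42) at lncRNA starts and −0.33 (−0.38 to −0.29) at neither. At least 2-fold higher were 7 (1.89%), 42 (7.85%) and 193 (12.5%) of them, and at least 2-fold lower 56 (15.1%), 105 (19.6%) and 299 (19.4%), beside 13.2% and 18.3% of all regions. The shares at neither kind of start were close to those of all regions. Named promoters did not show this order, with a median of −0.58 in each of the 3 classes. Their class at neither start held 2142 regions, with medians of 6.08 RPM in the control library and 719 bp. It may include promoters whose start is missing from the reference set, and the part of such gaps in the contrast was not tested.

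By the class of the matched gene, 636 unnamed promoters belonged to lncRNAs, 236 to pseudogenes, 129 to microRNAs, 77 to snRNAs, 56 to protein coding genes, 55 to snoRNAs, 9 to other RNAs and 3 to tRNAs, and 1285 had no match. Promoters of lncRNAs had a median of 3.76 RPM in the control and 2.58 RPM in the HKO library, and those of pseudogenes 1.41 and 1.14 RPM. Among regions that overlapped a single RefSeq gene, the strongest of the lncRNA class was at Gm36445 (chr13:65240475-65242205), with 2657 and 1954 counts. The strongest such region of the snoRNA class lay in an intron of Eepd1, with 756 and 442. The median log2 ratio was −0.48 for lncRNAs, −0.44 for microRNAs, −0.41 for pseudogenes, −0.55 for protein coding genes and −0.49 for snoRNAs, beside −0.38 for all regions.

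The snRNA promoters stood higher. Their median log2 ratio was −0.10 (−0.22 to 0.05), or 0.27 centred (0.16 to 0.43), and 58 of 77 (75.3%) lay above the median of all regions, against 46.3% of unnamed promoters. By 2-fold or more 6 were higher (7.79%) and 5 lower (6.49%), beside 13.2% and 18.3% of all regions. Their median signal, 2.50 and 2.15 RPM, was close to that of all unnamed promoters. The strongest that overlapped a single RefSeq gene, at Gm25360, a predicted snRNA gene on chr1:72225697-72227003, had 657 counts in the control and 845 in the HKO library, a log2 ratio of 0.23 (0.08 to 0.38). SnRNA genes occur in many near-identical copies, so reads of such a region may be shared among them.

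A further 21 unnamed promoters overlapped a RefSeq tRNA gene, a group formed after the values were seen. Their median log2 ratio was −0.07 (−0.35 to 0.49), or 0.31 centred, and 16 of 21 lay above the median of all regions. By 2-fold or more, 5 of them were higher and 1 was lower, where all regions had 13.2% and 18.3%. The higher ones at 4930557F10Rik, Gm26654 and n-TStga2 and one at Mir6546 had only 12 to 19 counts in the control library. A peak was called at them only in the HKO library, so they entered the regions only through it. The remaining higher region neighbours the one at Mir6546. At tRNA genes within 4930557F10Rik (chr13:23298487-23299265) the counts were 19 and 272, and at a tRNA gene within Gm26654 they were 13 and 114. The region at B230208H11Rik, a lncRNA gene with a leucine tRNA gene beside it, went the other way with 1414 and 738 counts. At 4930555B11Rik, which holds an alanine and a glycine tRNA gene, the counts were 1302 and 1473.

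**Figure D3:**
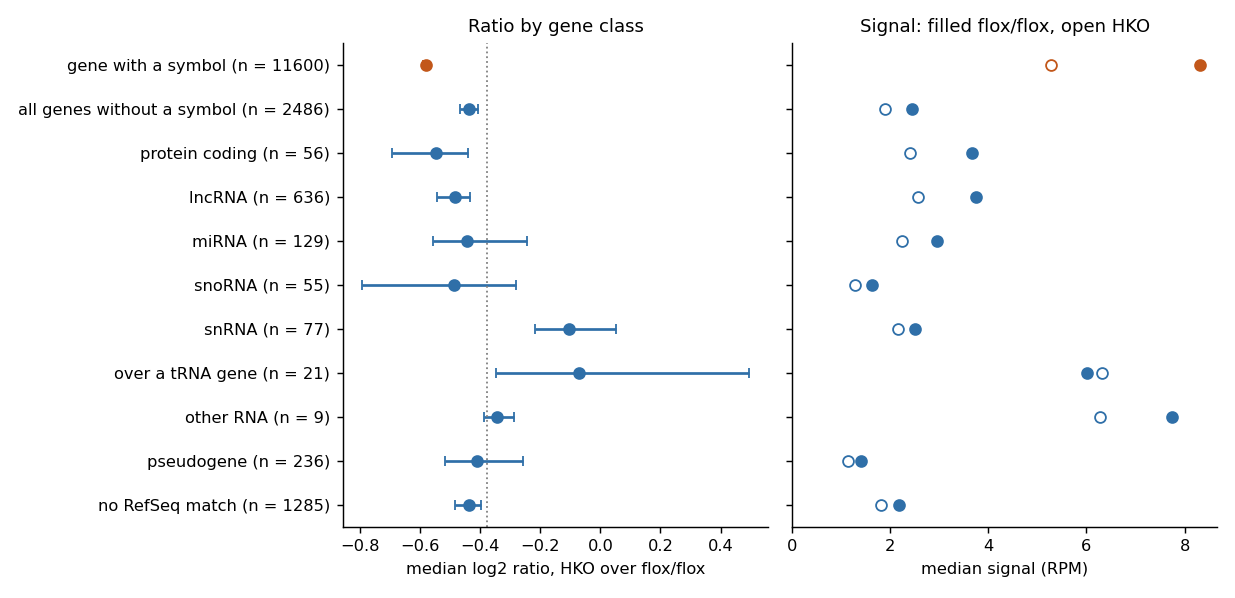
Median log2 ratio with its 95% order-statistic interval over regions (left) and median signal in RPM (right, filled control, open HKO) by the class of the matched RefSeq gene, for named promoters (top row) and unnamed promoters. The dotted line is the median of all regions, −0.38. The snRNA class at −0.10 and the regions over a tRNA gene at −0.07 lie to the right of it, and the other plotted classes of unnamed promoters lie between −0.55 and −0.34.

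The 6 strongest unnamed promoters that overlapped a single RefSeq gene were lower in the HKO library, also after centring. Against the strongest 10% of named promoters, whose median log2 ratio was −0.66, those at Zc3h7a, Taco1, Coq10b and Gm6410 were not lower. The highest mean signal among regions with a single RefSeq name was in an intron of Zc3h7a (chr16:11143848-11144408), over an Ensembl gene of 57 bp, with 5055 counts in the control and 3919 in the HKO library, a log2 ratio of −0.50 (−0.56 to −0.44). The region at Gm6410 (chr8:4677267-4678828) had 5257 and 3693 counts. At Gm10060, a pseudogene on chr8:19784413-19785280, the counts were 3783 and 1952, which gave the lowest ratio of the group, −1.09 (−1.17 to −1.01). Pseudogenes can share reads with their parent gene or copies, so these levels are uncertain.

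Several of the strongest lay at coding promoters. The region at Coq10b (chr1:55052199-55053474), a gene for coenzyme Q handling in mitochondria, was centred 66 bp from the RefSeq start of Coq10b and had 3072 and 2163 counts. The region at Zswim6 (chr13:107889787-107891501) had 3484 and 2118 counts, a log2 ratio of −0.85, and the Ensembl gene without a symbol there matched Zswim6 itself. The region in the first intron of Taco1 (chr11:106066673-106066965), which encodes a translational activator of mitochondrial COX1, was only 293 bp long and had 3661 and 2751 counts. These 3 fell by 0.64, 0.85 and 0.55 on the log2 scale, of which 0.38 is the shift of all regions. The longest unnamed promoters were at 2410080I02Rik, with 2277 bp and 3091 and 1983 counts, and at B330016D10Rik, with 2169 bp and 1472 and 1198 counts.

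Some strong regions fell outside the naming rule and were chosen after their values were seen. The region at Rn18s-rs5, a copy of the 18S ribosomal RNA sequence on chr17:39847596-39848861, had 55987 and 47705 counts, far above any other unnamed promoter, and a log2 ratio of −0.37. Second to it was a region over no RefSeq gene, with 8476 and 4658 counts. Ribosomal DNA has many copies, so the level at Rn18s-rs5 may reflect how reads were placed among them, which was not tested. The region of Mir5620 at the start of Clcn4 (chr7:7298143-7299760) had 4659 and 3084 counts, that of Mir5627 at the start of Dnajb9, an ER chaperone gene, 2820 and 2205, and that of Zbtb11os1 2560 and 1756. The region at the start of Arrdc3, an arrestin domain gene (chr13:80885373-80886470), had 2329 and 2555 counts and a log2 ratio of −0.0022 (−0.08 to 0.08).

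Among unnamed promoters in their upper 50% by mean RPM that overlapped a single RefSeq gene, the highest ratio was at 4930522O17Rik, a lncRNA gene whose promoter is printed above (region chr4:53246147-53246862). It had 21 counts in the control and 242 in the HKO library, a log2 ratio of 3.33 (2.75 to 4.11). With 0.416 RPM in the control and 4.19 RPM in the HKO library, it passed that limit on the mean only through the library where it was high, as did Alkbh3os1, Clasp1 and Fmn1 below. Alkbh3os1, also printed above (chr2:93979691-93980157), had 32 and 252 counts and a log2 ratio of 2.80 (2.31 to 3.42). At both, a peak was called only in the HKO library.

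The other regions of this group lay inside long genes. That in an intron of Clasp1, a microtubule-binding protein gene, had 87 and 418 counts and a log2 ratio of 2.12 (1.79 to 2.48). That in an intron of Fmn1, a formin, had 47 and 209 counts, and that in an intron of Macrod2 131 and 503. The lower end of each of these intervals was above 1.5 on the log2 scale. The regions were picked for their high ratios and the intervals cover counting error only, so this lends the differences no further weight. Among genes without any name, ENSMUSG00000110500 (chr8:66494426-66495174) had 56 and 449 counts, a log2 ratio of 2.85, and ENSMUSG00000098268, whose region lies 8382 bp from the start of Clec2d, 83 and 188. Both also passed the limit only through the HKO library, with 1.08 and 1.59 RPM in the control.

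A few further regions were chosen after their values were seen, for their high ratios. The region of Mir6546 inside Fcgr3 (chr1:171064064-171065085), the gene of an Fc receptor of macrophages and other myeloid cells, had 178 and 705 counts, a log2 ratio of 1.84 (1.61 to 2.10), and a neighbouring region 19 and 150. Both also overlap tRNA genes and are among the 21 regions above. A region in an intron of Fcgr2b, the inhibitory Fc receptor, had 68 and 186 counts. A region 3484 bp from the start of Jun (chr4:95048024-95049453), which encodes an AP-1 subunit and is induced by stress, had 721 and 2031 counts, a log2 ratio of 1.36 (1.23 to 1.48). A region at 2310001H17Rik had 104 and 302 counts.

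Promoter regions of cell type markers were also compared between the libraries. All 8 hepatocyte markers, 7 of 8 sinusoidal endothelial, 2 of 8 macrophage, 3 of 8 stellate, 5 of 8 cholangiocyte and none of 8 lymphocyte markers had one. The summed signal of the hepatocyte markers was 104 RPM in the control and 60.8 RPM in the HKO library. That of the endothelial markers was 3.03 and 7.01 RPM, of the macrophage markers 1.04 and 1.96, of the stellate markers 15.2 and 5.44 and of the cholangiocyte markers 15.8 and 12.1. The median log2 ratios were −0.66, 1.60, 1.29, 0.08 and −0.19 in this order, or −0.28, 1.98, 1.67, 0.45 and 0.19 centred. The endothelial and macrophage regions were weak, with 11 to 48 and 8 to 45 counts in the control and 28 to 89 and 40 to 72 in the HKO library. The stellate sum fell while the median did not, and the counts of those 3 markers ranged from 37 to 690 in the control and from 43 to 138 in the HKO library. Defining markers such as Csf1r, Clec4f, Marco and Ptprc had no promoter region in the table. The part of cell composition in the ratios of unnamed promoters was not tested.

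The lowest ratio of all unnamed promoters, −5.26, was at a region of 221 bp in Arfgef1 with 173 and 4 counts, which was below the upper 50% by signal. The regions that follow are from that upper part. At Gm5432 (chr12:15849748-15850946) the counts were 1260 in the control and 247 in the HKO library, a log2 ratio of −2.48 (−2.69 to −2.29). A region at Nrp2 (chr1:62809562-62810237), the gene of a semaphorin and VEGF co-receptor, had 522 and 109 counts and a ratio of −2.39 (−2.71 to −2.10). Its centre lay 106582 bp from the nearest coding start of the reference set, that of Nrp2.

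Similar ratios were seen at Mid1, with 379 and 95 counts, at Gm35466, with 247 and 63, and at Ctnna2, with 371 and 96. With HKO signals of 1.90, 1.65, 1.10 and 1.67 RPM, the regions at Nrp2, Mid1, Gm35466 and Ctnna2 passed the limit on the mean only through the control library, where they were high. Among genes without any name, ENSMUSG00000104332 (chr1:121301038-121302382) had 815 and 141 counts, a log2 ratio of −2.66 (−2.94 to −2.41). The nearest coding start of the reference set, 25968.5 bp away, was that of Insig2, whose product restrains SREBP processing and sterol synthesis. ENSMUSG00000083991 (chr11:101351135-101352186), 16056 bp from the start of G6pc, the catalytic subunit of glucose-6-phosphatase, had 813 and 258 counts and a ratio of −1.79. No link between these regions and those genes was measured.

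Gm39228, the lncRNA gene printed above, was named after its values were seen. The centre of its region lies 4177 bp from the start of Mt1, a metallothionein that binds zinc and is induced by metals and glucocorticoids. The region over its start (chr8:94182990-94183543) had 767 and 209 counts, a log2 ratio of −2.01 (−2.24 to −1.79). The region just upstream of it (chr8:94182094-94182772) had 689 and 125 counts, a ratio of −2.59 (−2.89 to −2.32), and a peak only in the control library.

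**Figure D4:**
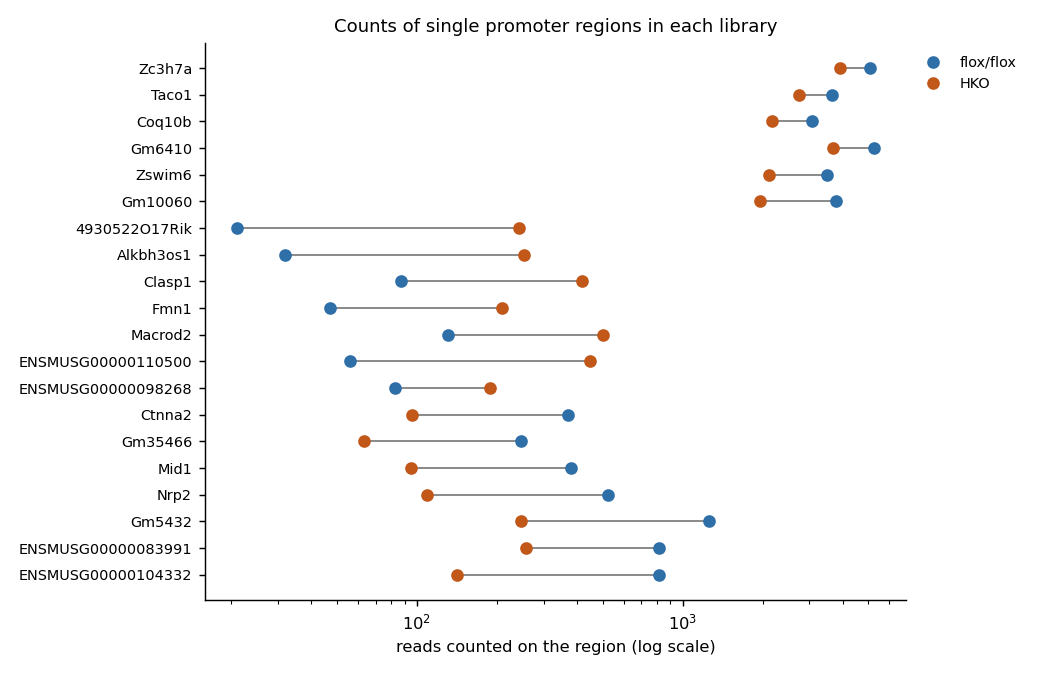
Read counts (log axis) of single unnamed promoters in the control (blue) and HKO library (orange), labelled by the RefSeq gene they overlap or by the Ensembl identifier. From top to bottom are the 6 strongest that overlapped a single RefSeq gene, all lower in the HKO library, the 7 with high ratios, and the 7 with low ratios.

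Known non-coding RNA genes were drawn from lists of 87 genes. Of these, 39 had an unnamed promoter, with 51 regions in all. On the authors' scale none was higher by 2-fold or more and 6 were lower, and after centring 2 and 1. Over all regions 13.2% were higher and 18.3% lower, or 20.0% and 7.89% centred. Their median log2 ratio was −0.43, beside −0.44 for all unnamed promoters.

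Among microRNA genes, 6 of 34 were found, with 7 regions. The mature forms below are the arms in common use of 5 of those genes and of let-7i, with the seed (bases 2 to 8), which pairs with target mRNAs, in capitals. The sequences are from RefSeq (GRCm38.p6). They show that miR-29a and miR-29c share a seed, and that the others each have their own.
mmu-miR-29a-3p: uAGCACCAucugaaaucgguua
mmu-miR-29c-3p: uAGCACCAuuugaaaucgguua
mmu-miR-101b-3p: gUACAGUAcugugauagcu
mmu-miR-194-5p: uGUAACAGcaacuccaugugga
mmu-miR-802-5p: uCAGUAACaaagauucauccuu
mmu-let-7i-5p: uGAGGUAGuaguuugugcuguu

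The 2 members of the miR-29 family, which represses collagen mRNAs, had weak regions that were not lower in the HKO library. Mir29a had 38 and 66 counts, a log2 ratio of 0.64 (0.06 to 1.28), and Mir29c had 71 and 84, a ratio of 0.10 (−0.37 to 0.58). These regions lay downstream of the hairpins, at 762 and 661 bp from the annotated starts. Mir101b had 577 and 292 counts, a ratio of −1.12 (−1.33 to −0.91), at a region centred in an exon of its host gene Rcl1. Mir194-2, a microRNA of liver and gut, had 78 and 39 counts, a ratio of −1.12 with a wide interval (−1.73 to −0.56).

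Mir802, a microRNA linked to glucose metabolism in liver, had 302 and 224 counts at its hairpin and 103 and 82 upstream, with ratios of −0.57 and −0.46. Mirlet7i, not on the list, was the strongest of the microRNA class among regions that overlapped a single RefSeq gene. It had 1203 and 976 counts and a ratio of −0.44 (−0.56 to −0.31).

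Mir122, the most abundant microRNA of hepatocytes, had only a weak region 464 bp downstream of the hairpin's start, with 67 and 68 counts and a ratio of −0.11 (−0.62 to 0.39). The transcript that carries it is known to start upstream of the hairpin.

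Among lncRNA genes, 23 of 38 were found, with 34 regions, of which 5 had a ratio above 0, as had 30.1% of unnamed promoters and 35.2% of all regions. Snhg8, a snoRNA host gene, was the strongest (chr3:123507993-123509105), with 3902 and 3235 counts and a ratio of −0.41 (−0.47 to −0.34). Snhg5 and Snhg6, hosts of the same kind, were lower. Snhg5 had 1671 and 982 counts, a ratio of −0.90, and Snhg6 796 and 374, a ratio of −1.22 (−1.41 to −1.05). The hosts Snhg12, Snhg15, Snhg17, Snhg20 and Snhg3 had ratios from −0.51 to −0.28.

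Among other lncRNAs, ratios ran on both sides of the −0.38 of all regions. Neat1, which builds paraspeckles, had 1129 and 843 counts (−0.56). Malat1, a lncRNA of nuclear speckles, had 921 and 720 counts at an upstream region (−0.49) and 243 and 221 at its start (−0.27). Mir22hg, the host of miR-22, had 1118 and 871 counts at its start (−0.50) and 341 and 235 at a second region (−0.67), and Dancr 1113 and 721 (−0.76).

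Firre, an X-linked lncRNA that takes part in nuclear organisation, had 504 and 221 counts at its start and a ratio of −1.32 (−1.56 to −1.09). Rmst, a lncRNA of the nervous system, had the lowest ratio of the lists, −2.98, but from only 42 and 5 counts, and its interval ran from −4.90 to −1.87. Lncpint, a lncRNA of the p53 pathway, had 3 regions that differed, with 305 and 156 counts at a region 781 bp inside the gene, 181 and 205 at the start and 307 and 246 at a further region. Dleu2, host of miR-15a and miR-16, had 1098 and 782, 1033 and 588, and 308 and 365 counts at 3 regions. Pvt1, next to Myc, had 444 and 292, 276 and 227, and 25 and 48. The regions of Epb41l4aos, Kcnq1ot1, Jpx, Oip5os1, Norad and Dnm3os had ratios from −0.93 to 0.48.

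Genes of structural RNAs had the narrowest range of ratios of the lists. Their lowest counts were 222 in the control and 182 in the HKO library, against 38 and 39 for microRNA and 23 and 5 for lncRNA genes. The part of read depth in the narrow range was not tested. Of 15 genes 10 were found, and their ratios ran from −0.47 to 0.09, with a median of −0.32, or 0.05 centred. Rn7sk, the RNA that restrains the elongation factor P-TEFb, had 1503 and 1195 counts (−0.47), Rmrp, the RNA of RNase MRP, 1044 and 904 (−0.34), and Terc, the telomerase RNA, 222 and 182 (−0.42). Rny1 and Rny3, the Y RNAs, had 408 and 363 and 279 and 235 counts. The spliceosomal genes Rnu5g, Rnu11, Rnu2-10 and Rnu1a1 had ratios of 0.09, −0.04, −0.29 and −0.38, and Vaultrc5, a vault RNA, had 794 and 836 counts (−0.06). None of the 10 was 2-fold apart between the libraries, beside 13.2% of all regions higher and 18.3% lower. In the upper 3 bins of signal, 2.96%, 0.282% and 0.324% of unnamed promoters were higher and 22.1%, 22.3% and 14.6% lower.

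**Figure D5:**
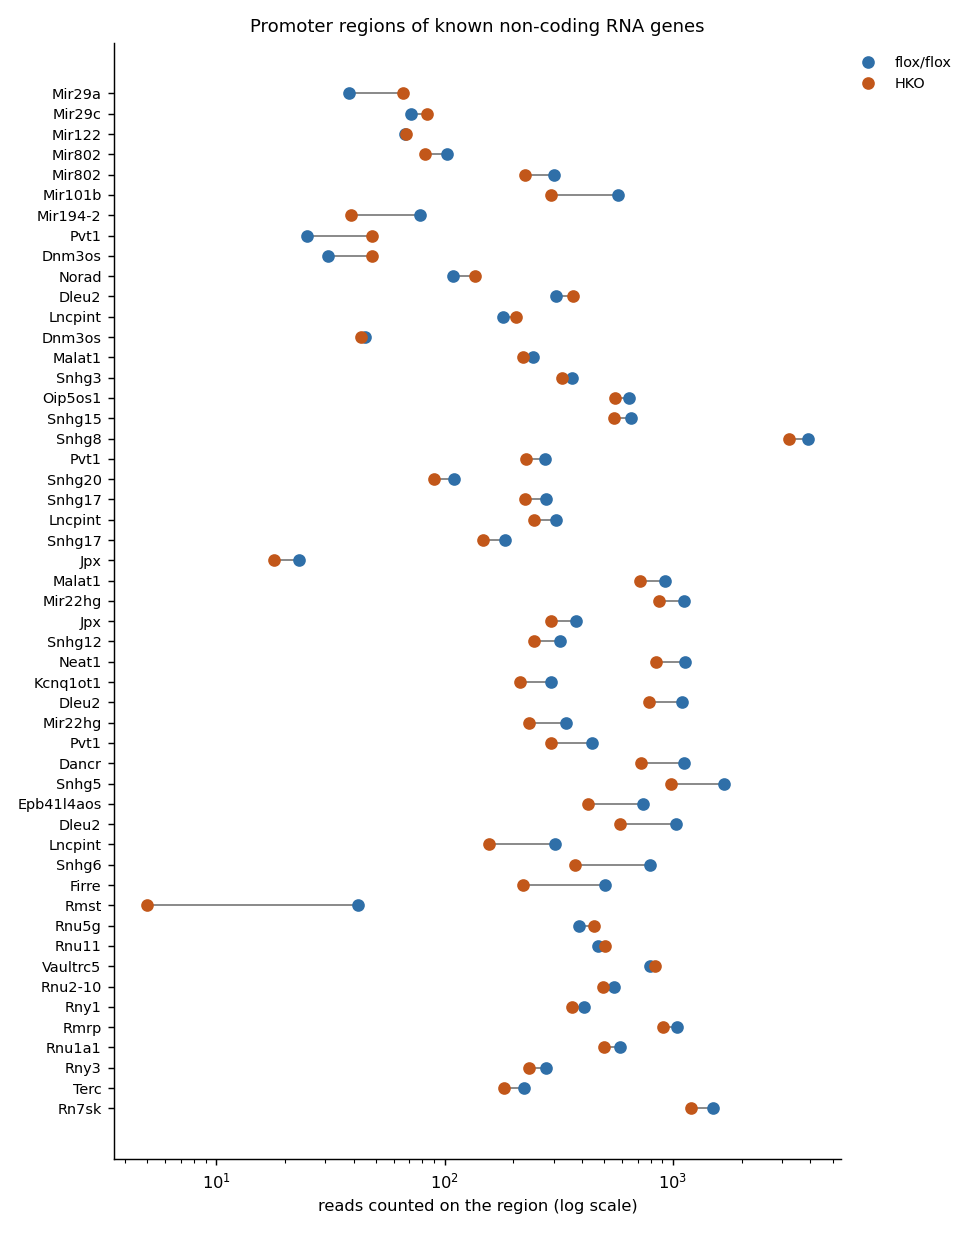
Read counts (log axis) at unnamed promoters of the listed non-coding RNA genes in the control (blue) and HKO library (orange), with microRNA genes at the top, lncRNA genes in the middle and structural RNA genes at the bottom, each ordered by ratio. A gene with several regions has several lines. The structural RNA genes lie close together, and the widest gap is that of Rmst, with 42 and 5 counts.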

How the data were processed

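ATAC-seq was analysed for 1 library of Mettl3 flox/flox and 1 of Mettl3-HKO liver, grouped by the sample labels. The authors trimmed adaptors with skewer, aligned reads with BWA to GRCm38, filtered reads by pairing and mapping quality, removed mitochondrial ones, and called peaks per library with MACS2, duplicates included. The counting on merged regions and any Tn5 shift of read ends are not given in the sources used here. For each region the authors deposited the raw read count of both libraries, the RPM (count plus 1, scaled to a common library size), a fold enrichment (the ratio of read density on the region to that on the genome), marks for a peak in each library, and their own log2 ratio between the libraries, which was not used.

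Of 74821 rows, 5272 repeats of a region were dropped. Log2 ratios were computed from the counts with 1 read added and scaled to the library totals of 52826210 and 58038309 reads, which were recovered from the RPM values. RefSeq genes (GRCm38.p6) were matched by position, because their table pairs no Ensembl identifiers. A gene model matched at 90% of the joint length for a name and at 50% for a class. The members, lists, motifs and groups were chosen with earlier results of these data known.

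With 1 library per group nothing was tested between genotypes. Medians carry order-statistic, shares Wilson and single ratios Clopper-Pearson intervals at 95%. An exact conditional binomial test (two-sided, Benjamini-Hochberg adjustment over 69549 regions, threshold 0.05) also compared the counts. Clopper-Pearson intervals and the test cover counting error only, and since duplicates were kept the reads are not independent. Order-statistic and Wilson intervals cover the spread over regions, which are not replicates. The scripts were tested on simulated counts. Single regions were named by rank among regions overlapping exactly 1 RefSeq gene, the strongest region per Ensembl gene: the 6 strongest, the 5 highest and 5 lowest ratios in the upper 50% by mean RPM, the strongest of each class of at least 10, the 2 longest, the extreme regions without a name, and every gene of the lists. Alternatives to scaling, added reads, window, distance, signal filter, peak filter, chromosomes and fold threshold were computed. Scripts ran in Python 3.11.15 with scipy 1.17.1 for statistics, numpy 2.4.6, matplotlib 3.10.9 for plots and pandas 2.3.3.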

Additional observations from a re-analysis of the deposited data

How the results depend on the processing

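No paired analysis was possible because there is 1 library per group, and for the same reason no replicate could be left out. The median log2 ratio of the 2486 unnamed promoters was −0.44. It was −0.059 when centred on all regions, and it turned positive at 0.22 when centred on the strongest 10% of named promoters and at 0.075 when scaled to the reads in regions. The counts past 2-fold, 244 higher and 466 lower, were 388 and 211, 524 and 102, and 455 and 148 under these scalings, which leave the difference of 0.14 from named promoters as it is. With 10 reads added 153 were higher. With 0.5 reads added, on numbered chromosomes, and beyond 5 kb from named starts, every value over all unnamed promoters was close to the reported one.

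The difference from named promoters was smaller among stronger regions. In the upper 50% of all regions by mean RPM it was 0.049, with a median ratio of −0.56 among 1476 regions, 30 higher, 291 lower, a control signal of 6.16 RPM and a length of 727.5 bp. Among 762 regions without a RefSeq name and over 2 kb from RefSeq gene ends it was 0.27, with −0.31, 105 higher, 142 lower, 1.59 RPM and 392 bp. Among 1697 regions within 500 bp of the TSS the median ratio was −0.47, with 141 higher (8.31%, against 9.81%), 322 lower, 3.26 RPM and 557 bp, and with no minimum distance to named starts the signal was 2.69 RPM. With a peak in both libraries, a limit that itself removes regions with large ratios, 1696 regions gave a difference of 0.10, with −0.49, 34 higher, 274 lower, 4.86 RPM and 640 bp. At 1.5-fold 407 were higher and 991 lower, and at 4-fold 50 and 40. Of 110 single regions named, 22 changed sign when centred, all of them below 2-fold, and 0 with 10 reads added. Each group is 1 pooled library, so the depth of 52826210 and 58038309 reads sets the counting error but not the spread between mice.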
